A study of Mus musculus with 2 samples.

Results

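CD3-positive T cells were rare in 2 single-cell libraries of RM-1 tumours: 98 of 20198 cell barcodes met the rule that defined them. RM-1 is an established mouse prostate cancer cell line, and its cells had been injected under the skin of C57BL/6 mice. The tumours were labelled wild type (WT) and had received either vehicle or RP-6306, an inhibitor of the kinase PKMYT1, and were collected on day 10 of treatment. Each treatment gave 1 single-cell library, read from the 3′ ends of transcripts, and the labels do not state clearly how many mice stand behind a library. With 1 library per treatment there was no test, and "higher" or "lower" below compares 2 libraries, not 2 treatments.

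A T cell is defined by its antigen receptor, whose constant regions are encoded by Trac and the Trbc genes and which signals through the CD3 chains encoded by Cd3d, Cd3e and Cd3g. Cytotoxic T cells carry the co-receptor CD8 (Cd8a and Cd8b1) and kill with perforin and granzymes, whereas helper and regulatory T cells carry CD4, and the regulatory ones are made by the transcription factor Foxp3. In tumours, T cells that meet antigen for long keep inhibitory receptors such as PD-1 and CTLA-4 on their surface, and chemokine receptors such as CXCR3 and CXCR6 guide them into the tissue.

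A barcode was taken as a CD3-positive cell when it had at least 200 detected genes, at most 15% mitochondrial UMIs, at most 3 UMIs of the keratins Krt8 and Krt18, at most 2 UMIs of the macrophage gene Lyz2 and at least 2 UMIs of Cd3d, Cd3e, Cd3g, Trac and Trbc2 together. A UMI (unique molecular identifier) counts 1 captured RNA molecule. The vehicle library gave 37 such cells of 9686 barcodes and the RP-6306 library 61 of 10512. Exactly 2 CD3 UMIs were found in 7 and 15 of them, 3 to 5 in 15 and 18, and 6 or more in 15 and 28, while 19 and 26 further barcodes missed the rule with exactly 1. The keratin limit removed 3 and 8 barcodes, which held 12 to 33 and 5 to 25 keratin UMIs, and the Lyz2 limit removed 0 and 2. Because these 5 genes chose the cells, their own levels are a description. Cd3g was at 1099 and 1090 CPM (a gene's share of all UMIs of the summed cells), Trac at 1034 and 650.3 CPM, and Cd3d at 323 and 527 CPM in the vehicle and RP-6306 cells.

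The cells were small in RNA content. Their median depth was 1245 UMIs in the vehicle library (659 to 6867) and 1174 in the RP-6306 library (512 to 12687), against 10709.5 and 10770.5 in tumour barcodes, which are those over the keratin limit and within the other limits. Macrophage barcodes, those over the Lyz2 limit alone, had medians of 4316 and 3874 UMIs. All levels below come from 61866 vehicle and 113795 RP-6306 UMIs, so that 1 UMI was worth 16.2 and 8.79 CPM. No barcode of a CD3-positive cell occurred in both libraries, although 34 barcodes of the whole data did.

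Genes that the rule did not use were present in all cells, although the label does not hold equally for each. Of 20 further genes of the T cell receptor and its signalling, among them the adhesion molecule Cd2, the costimulatory receptor Cd28 and the kinases Lck and Zap70, each of the 37 and 61 cells carried at least 1 UMI, with a median of 5 and 6 UMIs per cell. At least 2 such UMIs were present in 36 of 37 and 54 of 61 cells, compared with 9.23% and 12.3% of tumour barcodes and 41.0% and 41.1% of macrophage barcodes, which were deeper. Per library these genes reached 3750 and 3216 CPM in CD3-positive cells, compared with 37.2 and 45.5 CPM in tumour barcodes and 308 and 366 CPM in macrophage barcodes.

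Markers of other cell types were absent for some types and present at low levels for others. Of 17 macrophage and monocyte markers 7 were at 0 UMIs in all 98 cells, including Csf1r and Adgre1, as were all erythrocyte and platelet markers, 8 of 10 B cell markers and 8 of 14 dendritic cell markers. The macrophage list as a whole was at 533 and 914 CPM against 18851 CPM in vehicle macrophage barcodes, with 2 or more UMIs in 6 of 37 and 23 of 61 cells, and the tumour epithelium list at 372 and 615 CPM against 2628 CPM in vehicle tumour barcodes. Both lists were thus higher in the RP-6306 cells. The dendritic cell list was too, at 404 and 580 CPM from 25 and 66 UMIs, with up to 21 in 1 RP-6306 cell. The part of these lists in the results was not tested. The list of type 2 innate lymphoid cells, which share Gata3 with T cells, had 30 and 40 UMIs (485 and 352 CPM) with up to 11 in 1 cell, and its marker Il5 was at 0. For the natural killer (NK) cell list none of 8 markers was at 0: 4 cells in each library had 2 or more of its UMIs, with up to 12 in 1 vehicle cell and 25 in 1 RP-6306 cell, and Ncr1, a defining NK receptor, had 4 UMIs, all in that RP-6306 cell. That cell and a second RP-6306 cell, with 13 NK marker UMIs, met the rule through 2 Trbc2 UMIs alone, with Cd3d, Cd3e, Cd3g and Trac at 0, and NK cells also express some of the signalling genes listed above. Fibroblast markers summed to 89 and 34 UMIs, and 81 of the 89 came from 1 vehicle cell of 5775 UMIs that also carried Cd8a and Cd8b1. The 6 cells over 5000 UMIs held 20.4% of the vehicle and 29.3% of the RP-6306 UMIs. The 3 deepest RP-6306 cells also carried Tm4sf1, which was at 1648 and 1652 CPM in tumour barcodes, with 22, 3 and 12 UMIs. Results that moved without these cells are given with both values.

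CD3-positive cells made up 0.383% of the 9662 filtered vehicle barcodes (0.270 to 0.527, exact Clopper-Pearson 95% interval) and 0.582% of the 10486 filtered RP-6306 barcodes (0.445 to 0.747). The difference was 0.199 percentage points (2.05e-05 to 0.399), an interval that only just leaves out 0. Set against macrophage barcodes instead, they were 8.71% (6.20 to 11.8) and 13.3% (10.3 to 16.7) of both kinds together, a difference of 4.56 points (0.271 to 8.81). Intervals here and below cover counting error only, not the spread between animals. Those of levels and ratios also treat each UMI as an independent draw, so they leave out the spread between cells and can be too narrow.

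Cells with CD8 transcripts took a larger share of the CD3-positive cells in the RP-6306 library, by an amount within counting error, and the shares with Cd4 lay close together. Cd8a or Cd8b1 without Cd4 was detected in 6 of 37 vehicle cells, 16.2% (6.19 to 32.0), and in 20 of 61 RP-6306 cells, 32.8% (21.3 to 46.0). The difference of 16.6 points had an interval from -2.96 to 33.2, so the shares were not distinguishable at this number of cells. Cd4 without CD8 was found in 4 vehicle cells, 10.8%, and 6 RP-6306 cells, 9.84%. No cell carried both, and 27 and 35 cells carried none of the 3 genes.

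**Figure D1:**
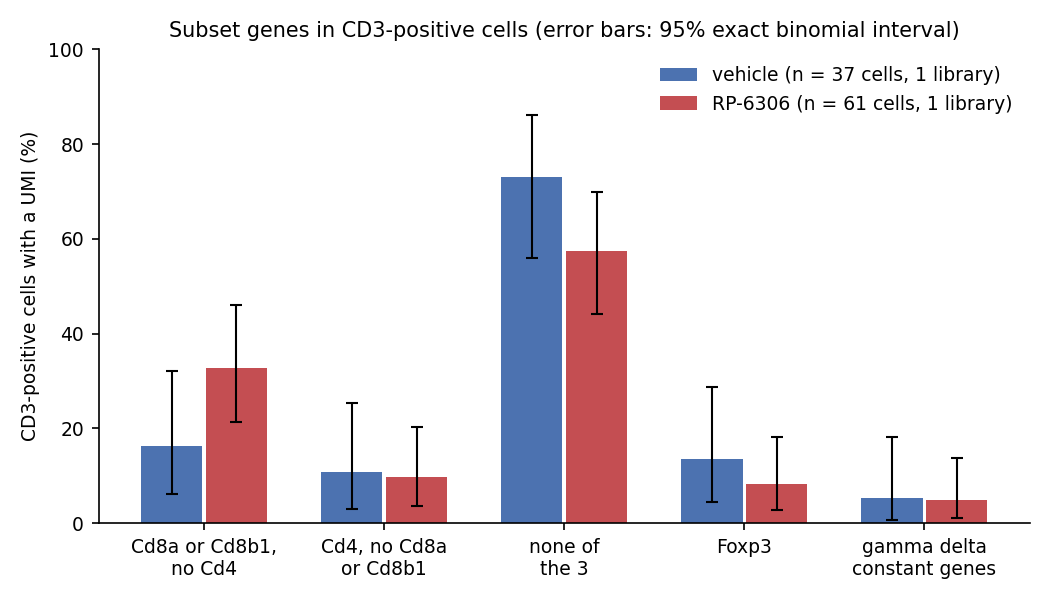
Share of CD3-positive cells (y axis, %) with a UMI of each subset gene set (x axis) in the vehicle library (blue, 37 cells) and the RP-6306 library (red, 61 cells), with exact 95% binomial error bars. The share with CD8 genes was 16.2% and 32.8%, the share with Cd4 was 10.8% and 9.84%, and the error bars of the libraries overlap in each pair.

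Cells without a co-receptor transcript were shallower, with median depths of 1222 and 967 UMIs against 2441 and 1549.5 in the CD8 cells. Depth was therefore levelled by computing the expected share after drawing the same number of UMIs from each cell. At 1000 UMIs, which leaves out 12 and 24 shallower cells, the expected share with CD8 genes was 9.76% among the 25 remaining cells of the vehicle and 33.6% among the 37 of the RP-6306 library, and at 500 UMIs, which leaves out none, it was 6.89% and 20.3%. Background from free RNA was low for these genes: CD8 genes without Cd4 were seen in 0.0830% and 0.106% of tumour barcodes and in 0.258% and 0% of macrophage barcodes.

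The level of the CD8 genes followed the same order. Cd8a (chromosome 6, 71373427 to 71379173, GRCm38) had 4 UMIs in 3 vehicle cells and 28 UMIs in 13 RP-6306 cells, or 64.7 CPM (17.6 to 166, exact Poisson interval) and 246 CPM (164 to 356). Its ratio was 3.81 (1.33 to 14.9, exact conditional interval) and its log2 ratio, computed as log2(CPM + 1) of RP-6306 over vehicle, was 1.91. Cd8b1 (chromosome 6, 71322788 to 71337494) had 10 UMIs in 6 vehicle cells and 35 UMIs in 17 RP-6306 cells, at 162 and 308 CPM, and the interval of its ratio of 1.90 (0.922 to 4.31) reached below 1. The list of both genes stood at a ratio of 2.45 (1.36 to 4.73), which was 5.52 in the cells without a keratin UMI and 5.02 at 1000 UMIs per cell. Cd4 (chromosome 6, 124864692 to 124888221) was at 64.7 and 79.1 CPM, from 4 and 9 UMIs.

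Regulatory T cell genes were detected in both libraries, at a summed ratio of 0.877 (0.717 to 1.08). Foxp3 (chromosome X, 7573644 to 7595245) was found in 5 vehicle cells and 5 RP-6306 cells, 13.5% and 8.20%, with 7 and 5 UMIs. A difference of -5.32 points (-21.5 to 8.05) was not resolved. Of these cells 0 of the 10 carried Cd4, a gene seen in few cells at this depth, and 1 RP-6306 cell carried CD8 genes. Ikzf2, which encodes Helios, a transcription factor of regulatory T cells, was at 711 CPM in the vehicle cells (44 UMIs in 16 cells) and 545 CPM in the RP-6306 cells (62 UMIs in 18 cells). Tnfrsf18, the receptor GITR, was at 372 and 316 CPM, and the high-affinity interleukin-2 receptor chain Il2ra at 162 and 79.1 CPM from 10 and 9 UMIs. Of 12 genes of the list 5 had at least 20 UMIs over both libraries, the minimum set for counting 2-fold differences, and none of the 5 differed 2-fold. The ratio of the list turned to 1.19 without the cells over 5000 UMIs, and that of Il2ra turned on the log2 scale from -1.02 to 0.52 at 1000 UMIs per cell. Over all 1433 genes with that many UMIs, 12.5% differed at least 2-fold, 7.96% being higher in the RP-6306 cells and 4.54% lower.

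Genes of gamma delta T cells, which use other receptor chains, gave few UMIs. Constant genes of the gamma chain were seen in 2 vehicle and 3 RP-6306 cells, 7 of the 10 UMIs being from Trgc2 in RP-6306 cells, and Trdc, the delta constant gene, had 0 UMIs. At this depth a gene is missed in many cells, so no share of gamma delta cells was derived. Variable segments of the receptors gave 1 UMI in the vehicle and 5 in the RP-6306 cells, too few to describe clones.

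Activation genes stood at nearly the same summed level in both libraries, 5075 CPM in vehicle and 5044 CPM in RP-6306 cells, a ratio of 0.994 (0.865 to 1.14). Of 22 genes 13 were abundant enough to count, of which 0 were 2-fold higher and 1 was 2-fold lower in the RP-6306 cells, with a median log2 ratio of 0.20 against 0.03 over all genes counted. Cd69, an early activation marker that also holds T cells in tissue, was found in 21 of 37 and 35 of 61 cells, at 873 CPM (656 to 1139) and 1002 CPM (826 to 1203). Il2rb, a shared receptor chain for interleukins, was at 469 and 509.7 CPM. The interval of the ratio included 1 for both genes. The ratio of the list was 1.15 without the cells with the highest doublet scores and 1.25 in the cells without a keratin UMI.

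Costimulatory receptors went different ways without leaving their counting error. Tnfrsf9, which encodes 4-1BB, had 15 UMIs in 10 vehicle cells and 47 UMIs in 17 RP-6306 cells, at 242 and 413 CPM, a ratio of 1.70 (0.936 to 3.28). Icos was lower in the RP-6306 cells, with 17 UMIs in 9 vehicle cells and 16 in 7 RP-6306 cells, at 275 and 141 CPM (ratio 0.512, 0.242 to 1.08). Tnfrsf4, which encodes OX40, was at 372 and 308 CPM. Tumour barcodes also carried Tnfrsf9, 18.8% and 16.6% of them with a UMI, but at 20.2 and 17.6 CPM.

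The 1 activation gene past 2-fold was Myc, which drives growth after antigen contact, with 13 UMIs in 9 vehicle cells and 9 UMIs in 7 RP-6306 cells (210.1 and 79.1 CPM, log2 ratio -1.40, ratio 0.376 with an interval of 0.142 to 0.952). Batf and Irf4, transcription factors induced by receptor signalling, lay in the same direction below the UMI minimum, with 9 and 5 UMIs for Batf and 6 and 1 for Irf4. Immediate-early genes as a list were also lower in the RP-6306 cells, at 19930 and 16389 CPM (ratio 0.822, 0.765 to 0.884), and 1 vehicle cell of 5775 UMIs held 221 of the 1233 vehicle UMIs. Without the top cell of each library the ratio was 0.915 (0.846 to 0.991). That vehicle cell carried CD8 genes, and in CD8 cells the list summed to 24488 CPM in the vehicle and 14375 CPM in the RP-6306 library (ratio 0.587, 0.517 to 0.668). Without it the vehicle value was 16455 CPM, and without the CD8 cells over 5000 UMIs of both libraries the ratio was 0.648 (0.535 to 0.788). In the cells without CD8 genes it was 0.964 (0.882 to 1.05).

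**Figure D2:**
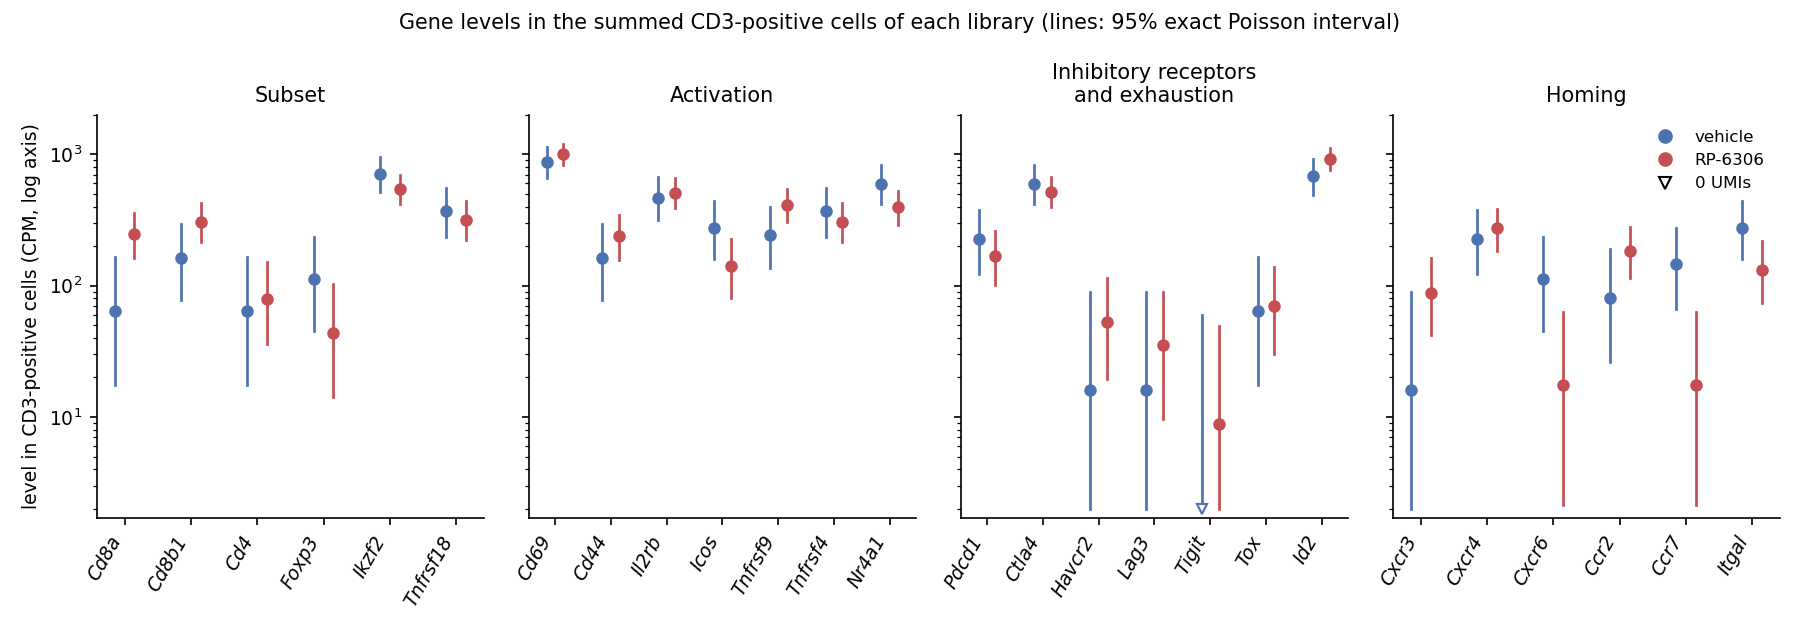
Level of 26 genes in the summed CD3-positive cells of the vehicle (blue) and RP-6306 (red) library (y axis, CPM on a log axis), in panels for subset, activation, inhibitory and homing genes, with exact 95% Poisson intervals as lines and a triangle for 0 UMIs. Cd8a is higher in the RP-6306 cells with intervals that barely meet, activation and inhibitory genes overlap, and Ccr7 and Cxcr6 are lower in the RP-6306 cells on 2 UMIs each.

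Exhaustion genes and inhibitory receptors did not separate the libraries. The list of 22 genes summed to 3039 CPM in vehicle and 2997 CPM in RP-6306 cells, a ratio of 0.986 (0.823 to 1.18), and of its 6 genes with enough UMIs 0 differed 2-fold. Its ratio was 1.2 without the cells over 5000 UMIs and 1.27 in the cells without a keratin UMI, so its side of 1 turned with few cells. Ctla4 (chromosome 1, 60887000 to 60915832), whose product blocks costimulation, was detected in 15 of the 37 cells of the vehicle and 27 of the 61 of the RP-6306 library, with 37 and 59 UMIs, at 598 CPM (421 to 824) and 518 CPM (395 to 669). Pdcd1 (chromosome 1, 94038305 to 94052553), which encodes PD-1, was detected in 9 and 17 cells with 14 and 19 UMIs, at 226 CPM (124 to 380) and 167 CPM (101 to 261). Neither gene had a UMI in macrophage barcodes, and 1 and 4 tumour barcodes had one of Ctla4 and 1 in each library one of Pdcd1. Levelled to 1000 UMIs, the expected share of cells with Pdcd1 was 20.5% in both libraries, and with Ctla4 it was 34.9% and 39.9%.

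The receptors of late exhaustion were close to the detection limit. Havcr2, which encodes TIM-3, had 1 UMI in the vehicle cells and 6 UMIs in 5 RP-6306 cells, Lag3 had 1 and 4 UMIs, and Tigit had 0 and 1. The ratio of Havcr2 was 3.26 with an interval of 0.396 to 150, and 10.6% of the deeper vehicle tumour barcodes also carried it. Tox, a transcription factor of exhausted cells, was at 64.7 and 70.3 CPM from 4 and 8 UMIs. Differences in these 4 genes were not detectable at this depth. Id2 and Bhlhe40, transcription factors shared by many effector cells, were the most abundant of the list beside Ctla4, at 679 and 923 CPM and at 760 and 527 CPM, and neither ratio left 1 out of its interval.

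Homing genes stood at 3944 and 3577 CPM as a list (ratio 0.907, 0.772 to 1.07; 1.07 without the cells with the highest doublet scores). Of 32 genes 11 had enough UMIs, with 1 at least 2-fold higher and 1 at least 2-fold lower in the RP-6306 cells. The higher one was Ccr2, a receptor for inflammatory chemokines, with 5 UMIs in 3 vehicle cells and 21 UMIs in 13 RP-6306 cells (80.8 and 185 CPM, log2 ratio 1.18, ratio interval 0.838 to 7.75). Macrophage barcodes held Ccr2 at 290 and 235 CPM. The lower one was Itgal, the adhesion integrin LFA-1 alpha chain, at 275 and 132 CPM (log2 ratio -1.05, ratio interval 0.223 to 1.02). Cxcr3 (chromosome X, 101731535 to 101734269), the receptor for Cxcl10, had 1 UMI in 1 vehicle cell and 10 UMIs in 8 RP-6306 cells, at 16.2 and 87.9 CPM, a ratio of 5.44 (0.773 to 236).

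Receptors of resident and of recirculating cells were lower in the RP-6306 cells on very few UMIs. Cxcr6, found on tissue-resident cells, had 7 UMIs in 6 vehicle cells and 2 UMIs in 2 RP-6306 cells, a ratio of 0.155 (0.0157 to 0.816). Ccr7, which leads naive cells to lymph nodes, had 9 UMIs in 5 vehicle cells and 2 in 2 RP-6306 cells, a ratio of 0.121 (0.0127 to 0.584). Cxcr4, a receptor shared by most leukocytes, was at 226 and 272 CPM. The resident-cell list as a whole was level, at a ratio of 0.903 (0.767 to 1.06), with Rgs1, its most abundant gene, at 1164 and 1257 CPM.

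Naive and memory genes were led by Klf2, a transcription factor of quiescent and recirculating cells, at 2667 and 2144 CPM, and Il7r, the interleukin-7 receptor, at 469 and 352 CPM. The list had a ratio of 0.789 (0.673 to 0.928) and 0 of its 5 counted genes differed 2-fold. The sign of this ratio was not stable: the mean of per-cell CPM gave 1.08. Lef1 was higher in the RP-6306 cells, at 80.8 and 158 CPM, and Tcf7 lower, at 113 and 61.5 CPM, each with an interval that included 1.

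Helper-type transcription factors diverged on small counts. Eomes, a factor of effector and memory CD8 cells, had 0 UMIs in the vehicle cells and 14 UMIs in 9 RP-6306 cells. It was 2.54-fold higher when the vehicle sum is set to the floor of 3 UMIs, and the interval of its ratio began at 1.80. Gata3, the factor of type 2 helper cells, had 16 and 12 UMIs, at 259 and 105 CPM (log2 ratio -1.29, ratio interval 0.176 to 0.919), and at 1000 UMIs per cell its log2 ratio was 0.08. Ifng, the effector cytokine interferon gamma, was found in 9 of 37 and 16 of 61 cells, at 242 and 325 CPM, a ratio of 1.34 (0.718 to 2.63).

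Cytotoxic genes were the group with the most 2-fold differences: 5 of 11 counted genes were higher and 1 was lower in the RP-6306 cells. Over all 1433 genes counted, 7.96% were higher and 4.54% lower. The number of higher cytotoxic genes ran from 1 to 6 over 17 alternative settings. The list stood at 3976 and 5413 CPM (ratio 1.36, 1.17 to 1.58). Gzmb was at 307 and 905 CPM, found in 11 and 28 cells (ratio 2.95, 1.80 to 5.09). Gzmk had 0 vehicle UMIs and 22 RP-6306 UMIs in 14 cells. It was 3.99-fold higher with the vehicle sum set to 3 UMIs, and the interval of its ratio began at 2.98. Gzmc and Gzma, both among the genes counted as different, rest on single cells with NK markers: 44 of 48 Gzmc UMIs were in 1 RP-6306 cell and all 17 vehicle Gzma UMIs in 1 vehicle cell. Without the cells that had 2 or more NK marker UMIs the log2 ratio of Gzma turned from -1.78 to 5.99. That value sets 0 vehicle UMIs against few RP-6306 UMIs, at most 4 in 1 cell. Its size follows from the 1 CPM added to each level and is not an estimate of fold.

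T cell chemokines were higher in the RP-6306 cells as a list of 7, at 2829 and 5000.2 CPM, a ratio of 1.77 (1.49 to 2.11). Ccl5, which attracts further T cells, had 120 UMIs in 20 of 37 vehicle cells and 389 UMIs in 36 of 61 RP-6306 cells, at 1939.7 CPM (1608 to 2319) and 3418 CPM (3087 to 3776). The expected share of cells with Ccl5 at 1000 UMIs was 56.7% and 61.1%, while the highest count in 1 cell was 15 UMIs in vehicle and 50 UMIs in RP-6306 cells. Ccl4 was at 695 and 1213 CPM in 9 and 15 cells (ratio 1.75, 1.23 to 2.52), and macrophage barcodes held it at 1652 and 1770 CPM. Ccl3 was not separated, with 10 and 17 UMIs at 162 and 149 CPM (ratio 0.924, 0.400 to 2.26). Ccl1 had 24 UMIs in 3 RP-6306 cells and 0 in vehicle cells, with 14 of the 24 in 1 cell.

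**Figure D3:**
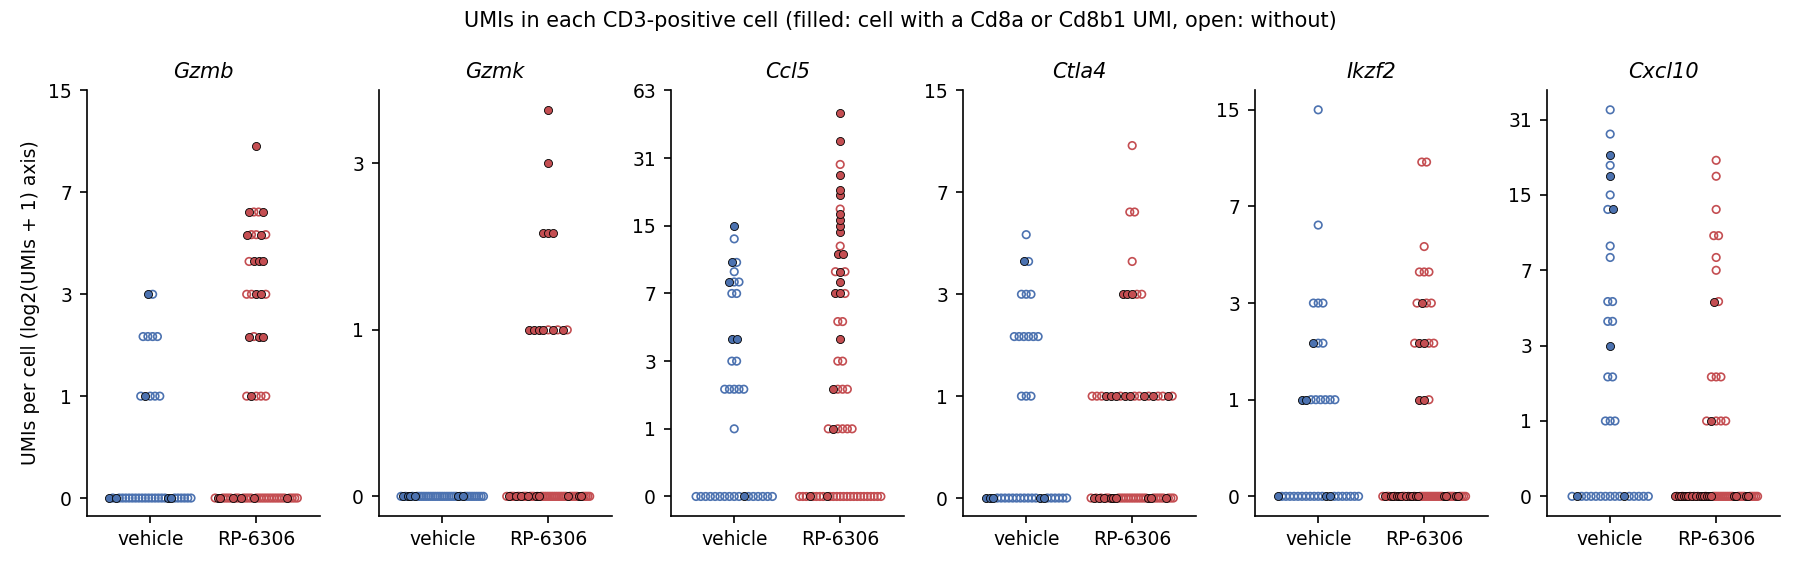
UMIs per CD3-positive cell (y axis, log2(UMIs + 1) scale labelled in UMIs) for 6 genes in the vehicle (blue) and RP-6306 (red) library, each circle 1 cell and filled where the cell had a Cd8a or Cd8b1 UMI. Gzmk is at 0 in all 37 vehicle cells, the highest Ccl5 counts are in RP-6306 cells (50 and 37 UMIs with CD8 genes, then 29 UMIs in a cell without), and Cxcl10 reaches 34 UMIs in vehicle and 21 in RP-6306 cells.

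Cells with CD8 genes carried a different set of genes from the other CD3-positive cells, and this was examined over both libraries together (26 and 72 cells, a description with no test). The cytotoxic list as a whole was not separated, at a ratio of 1.06 (0.919 to 1.22), and within the vehicle library it was lower in the CD8 cells (0.696, 0.495 to 0.960). The chemokine list had a ratio of 2.79 (2.41 to 3.25), with 1.62 in the vehicle and 3.11 in the RP-6306 library. Several effector genes were higher in the CD8 cells. Gzmk had 19 UMIs in 11 CD8 cells and 3 in the others, a ratio of 12 (3.52 to 63.1). Ly6c2, a marker of effector and memory CD8 cells, had 35 UMIs in 15 CD8 cells and 9 in the others, a ratio of 7.34 (3.46 to 17.4). Nkg7, a cytotoxic granule protein, had ratios of 3.46 (2.35 to 5.17), Ccl5 of 3.17 (2.64 to 3.81), Ccl4 of 3.06 (2.25 to 4.2) and Ifng of 2.38 (1.33 to 4.31). The ratio of Gzmb was 1.89 (1.3 to 2.74) over both libraries and 1.88 (1.25 to 2.84) within RP-6306, but 0.785 (0.190 to 2.46) within vehicle, on 4 UMIs in the CD8 cells and 15 in the others.

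Helper and regulatory genes were higher in the cells without CD8 genes. Icos had 1 UMI in the CD8 cells and 32 in the others, a ratio of 0.0590 (0.00145 to 0.353), and Tnfsf8, the CD30 ligand, 1 and 30 UMIs. Il7r had a ratio of 0.180 (0.0636 to 0.414), Tnfrsf9 of 0.202 (0.0712 to 0.469), Tnfrsf4 of 0.218 (0.0765 to 0.507) and Ikzf2 of 0.264 (0.135 to 0.474). Ccr7 was at 0 in the 26 CD8 cells and at 11 UMIs in the others. Pdcd1 leaned to the CD8 cells, 15 UMIs in 12 of 26 cells against 18 in 14 of 72, with an interval of 0.738 to 3.31 that included 1, while Ctla4 was lower there (ratio 0.529, 0.309 to 0.867). The libraries were unequal in this comparison, since 20 of the 26 CD8 cells came from the RP-6306 library.

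**Figure D4:**
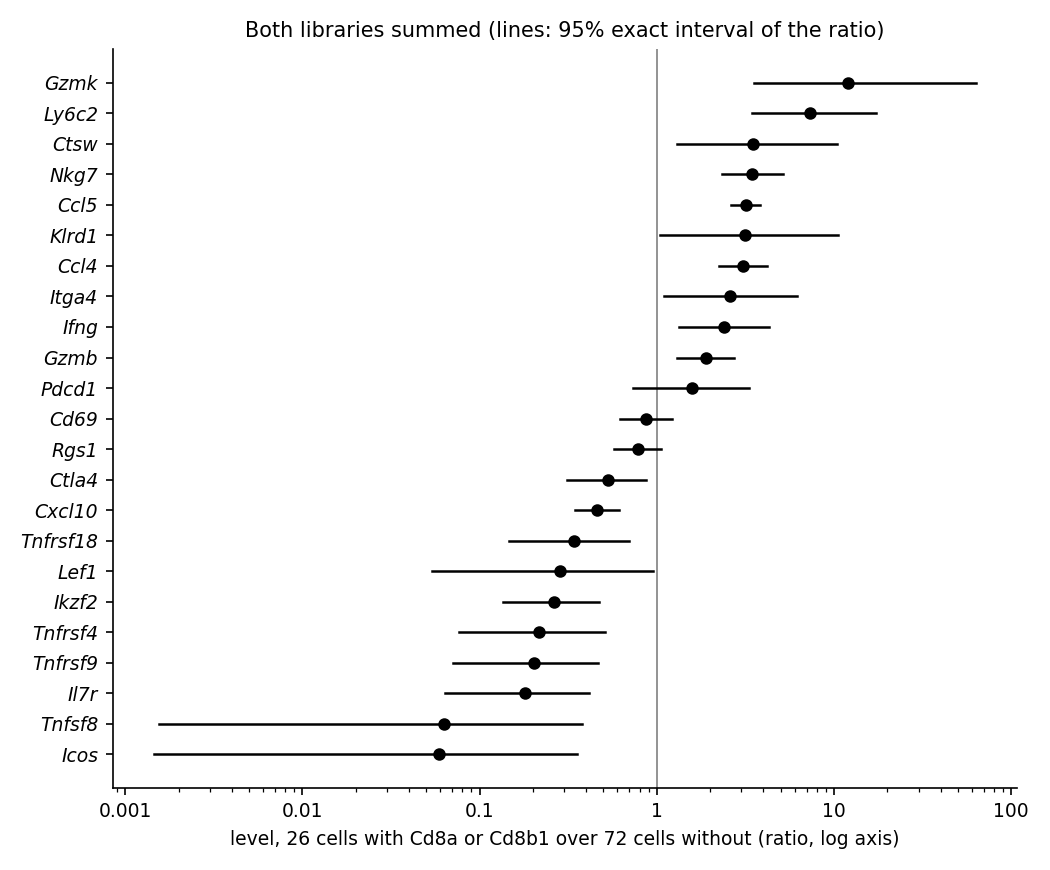
Ratio of the level in 26 CD3-positive cells with Cd8a or Cd8b1 over that in 72 cells without (x axis, log scale), both libraries summed, for 23 genes, with exact 95% intervals as lines and a grey line at 1. Effector genes from Gzmk to Gzmb lie above 1 over both libraries (Gzmb below it within vehicle), Pdcd1, Cd69 and Rgs1 cross it, and costimulatory and helper genes from Tnfrsf18 to Icos lie below it.

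The libraries were also compared within cells split by CD8 detection, which may leave CD8 cells with missed transcripts among those without. With 4 or more CD3 UMIs the RP-6306 share with CD8 genes was 47.4% in place of 32.8%. The vehicle share stayed within its interval of 6.19% to 32.0%, and the difference of 30.7 points was the largest of the 13 alternatives. In CD8 cells (6 vehicle, 20 RP-6306) activation genes stood at a ratio of 0.878 (0.665 to 1.17), which was 1.29 without the cells over 5000 UMIs, exhaustion genes at 1.08 (0.760 to 1.57) and homing genes at 1.13 (0.830 to 1.57). These ratios rest on few cells: leaving out, for each gene, the cell with most of its UMIs gave 2.28 for activation and 2.13 for exhaustion, and activation was 2.14 in the cells without a keratin UMI. Chemokines in these cells were at 3954 and 8461 CPM, a ratio of 2.14 (1.63 to 2.85), whereas in the 31 and 41 cells without CD8 genes they were at 2447 and 2724 CPM, a ratio of 1.11 (0.877 to 1.42). Of the 113 vehicle chemokine UMIs in cells without CD8 genes, 28 were in 1 cell with 12 NK marker UMIs. Without the cells with 2 or more NK marker UMIs, the chemokine ratio over all CD3-positive cells was 2.46. That ratio was not computed for the cells without CD8 genes. Ccl5 had 41 UMIs in 5 vehicle and 278 UMIs in 18 RP-6306 CD8 cells, at 2615 and 6157 CPM, and in the cells without CD8 genes its ratio was 0.945 (0.702 to 1.28). Without the CD8 cells over 5000 UMIs the ratio of Ccl5 was 3.31 (2.21 to 5.16). Gzmb was higher in both, with ratios of 4.95 (1.83 to 18.8) in CD8 cells and 2.06 (1.13 to 3.98) in the others. Whether the subsets differ in these ratios was not tested.

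In Cd4 cells (4 vehicle, 6 RP-6306) activation genes had a ratio of 1.33 (0.793 to 2.31) and exhaustion genes one of 1.31 (0.780 to 2.28). The activation ratio was 3.94 without the top cell of each gene and 2.53 at 1000 UMIs per cell. Ctla4 was found in 3 of the 4 vehicle and 4 of the 6 RP-6306 Cd4 cells, with 6 and 21 UMIs. In the cells without CD8 genes Tnfrsf9 had 14 and 42 UMIs, a ratio of 2.02 (1.08 to 4), and Pdcd1 had 10 and 8 UMIs. The 5 cells with Foxp3 in each library held Ikzf2 at 18 and 21 UMIs and Ctla4 at 14 and 5 UMIs.

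Cxcl10, the chemokine that attracts cells with the receptor CXCR3, was lower in the RP-6306 cells, unlike Ccl4 and Ccl5. Cxcl10 (chromosome 5, 92346638 to 92348889) had 207 UMIs in 20 of 37 vehicle cells and 108 UMIs in 17 of 61 RP-6306 cells, at 3346 CPM (2906 to 3834) and 949 CPM (779 to 1146). It was 1 of 65 genes at least 2-fold lower in the RP-6306 cells (log2 ratio -1.82, ratio 0.284 with an interval of 0.223 to 0.360). In the other barcodes the order was the opposite, at 165 and 299 CPM in tumour and at 307 and 428 CPM in macrophage barcodes. Among the positive cells the median was 6.5 UMIs in vehicle and 5 UMIs in RP-6306 cells, and 12 and 9 cells had 5 or more. Levelled to 1000 UMIs, the expected share of cells with Cxcl10 was 53.0% and 29.3%.

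Cxcl10 was also detected in 34% and 47.1% of the deeper tumour barcodes and in 21.9% and 23.3% of macrophage barcodes, so single UMIs of it in CD3-positive cells can be free RNA. In CD8 cells the gap was wider, with 56 UMIs in 4 of 6 vehicle cells and 6 UMIs in 2 of 20 RP-6306 cells. One of these vehicle cells was the one with fibroblast transcripts; without the cells over 5000 UMIs there were 34 UMIs in 3 of 5 vehicle cells and 1 UMI in 1 of 18 RP-6306 cells. In the cells without CD8 genes Cxcl10 had 151 and 102 UMIs, or 3269 and 1486 CPM, with a ratio of 0.455 (0.350 to 0.588). The Cd4 cells had 1 UMI in 1 of 4 vehicle cells and 23 UMIs in 3 of 6 RP-6306 cells, but 21 of the 23 were in 1 cell, and without it the ratio was 0.988 (0.0514 to 58.3).

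Genes of the interferon response were found in the same cells as Cxcl10. Ifit1, an antiviral effector, was detected in 11 vehicle cells, 10 of which carried Cxcl10, against 20 of 37 cells in all. In the RP-6306 library 7 of 12 Ifit1 cells carried Cxcl10, against 17 of 61 in all. Isg15, an interferon-induced ubiquitin-like protein, was shared in 11 of 12 vehicle and 9 of 20 RP-6306 cells, and Rsad2, which encodes viperin, in 5 of 5 and 3 of 4. The cells with Cxcl10 had median depths of 1276.5 and 1623 UMIs and those without it 1233 and 1043.5, and the part of depth in the RP-6306 overlap was not tested. Bst2 and Ifi27l2a, other genes of the list, were not shifted toward the Cxcl10 cells in the vehicle library, found in 25% and 55.0% of cells with it and in 29.4% and 47.1% of cells without it. In the RP-6306 library Bst2 was found in 58.8% of cells with Cxcl10 and 25% of cells without it, and Ifi27l2a in 52.9% and 40.9%.

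The promoters of these 4 genes hold the core letters of the interferon-stimulated response element, and a stretch of 60 bases of each is shown because they were detected together. The stretches are from RefSeq (GRCm38.p6), 5′ to 3′ on the strand of the gene, and capitals mark the motif GAAANNGAAA, searched on both strands and with overlapping matches joined. Of 32851 windows from 250 bases before to 50 bases after a gene's start, 3.44% hold this motif.
Cxcl10: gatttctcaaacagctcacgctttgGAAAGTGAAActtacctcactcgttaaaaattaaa
Ifit1: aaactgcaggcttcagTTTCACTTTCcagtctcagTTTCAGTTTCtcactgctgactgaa
Isg15: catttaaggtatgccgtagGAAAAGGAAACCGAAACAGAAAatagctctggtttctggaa
Rsad2: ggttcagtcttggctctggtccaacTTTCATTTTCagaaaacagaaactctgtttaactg
The Cxcl10 stretch is chr5:92349068-92349127 on the minus strand with its match 213 bases before the start, and the Rsad2 stretch is chr12:26456538-26456597 on the minus strand with its match 120 bases before the start. The Ifit1 stretch, chr19:34640769-34640828 on the plus strand, has 2 matches, and the Isg15 stretch, chr4:156200856-156200915 on the minus strand, has 3 that overlap. A match is a description of the letters and not a measure of binding in these cells.

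Of the other 3 genes Ifit1 and Rsad2 were also lower in the RP-6306 cells, and Isg15 was not separated. Ifit1 had 46 and 34 UMIs, at 744 and 299 CPM (log2 ratio -1.31, ratio 0.402 with an interval of 0.250 to 0.640). Rsad2 had 11 and 7 UMIs, at 178 and 61.5 CPM (ratio 0.346, 0.114 to 0.977), and Isg15 31 and 44 UMIs, at 501 and 387 CPM (ratio 0.772, 0.476 to 1.26). In tumour barcodes each was higher in the RP-6306 library, at 4.64 and 13.9 CPM for Ifit1, 20.9 and 58.0 CPM for Rsad2 and 53.9 and 101 CPM for Isg15. The interferon list as a whole did not share this direction in CD3-positive cells: of 47 genes 12 had enough UMIs, 4 were 2-fold higher and 1 was 2-fold lower. Its summed ratio was 1.15 (1.01 to 1.32), or 1.09 (0.953 to 1.26) without the top cell of each library. Without the cells over 5000 UMIs it was 1.36, and under all 15 alternative settings it lay above 1 (1.13 to 1.39).

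The 4 higher interferon genes were Ly6a, Ly6c2, Ifi203 and Samhd1. Outside the counted genes, Ifih1, Slfn5 and Ifit2 were lower in the RP-6306 cells, with log2 ratios of -2.25, -2.06 and -1.54. Each stayed below 0 under all 15 alternative settings. Ly6a, a surface protein of activated T cells also called Sca-1, had 36 UMIs in 19 of 37 vehicle cells and 140 UMIs in 37 of 61 RP-6306 cells, at 582 CPM (408 to 806) and 1230.3 CPM (1035 to 1452), a ratio of 2.11 (1.46 to 3.14). Tumour barcodes held Ly6a at 181 and 202 CPM. Ly6c2 had 9 and 35 UMIs (ratio 2.11, 0.996 to 5), Ifi203 8 and 30 and Samhd1 7 and 26 UMIs. MHC class I genes were higher by less, with H2-K1 at 4461 and 5589 CPM (ratio 1.25, 1.09 to 1.45), B2m at 1584 and 2232 CPM and the list at a ratio of 1.17 (1.07 to 1.29), none of its 13 counted genes reaching 2-fold.

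**Figure D5:**
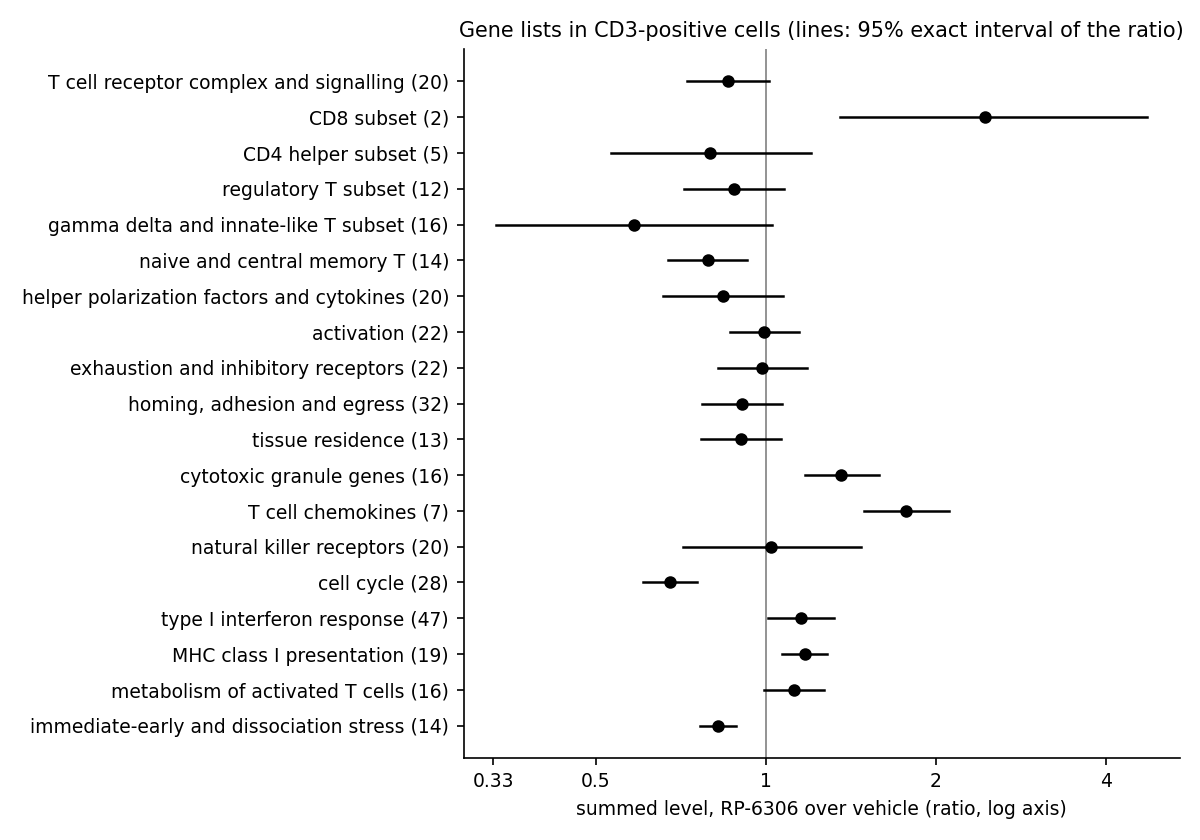
Ratio of the summed level of each gene list, RP-6306 over vehicle CD3-positive cells (x axis, log scale), for 19 lists with the number of their genes in parentheses and exact 95% intervals as lines. CD8 genes (2.45), chemokines (1.77) and cytotoxic genes (1.36) lie above 1, activation (0.994) and exhaustion (0.986) on it, and cell cycle genes (0.678) below.

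Dividing cells were few. Mki67, present in cycling cells, was detected in 4 vehicle and 4 RP-6306 cells, with 15 and 9 UMIs. The cell cycle list stood at 9424 and 6389 CPM, a ratio of 0.678 (0.607 to 0.757), with 0 of 11 counted genes 2-fold higher and 2 lower. Much of the vehicle value came from 1 cell: the deepest vehicle cell, of 6867 UMIs with 15 CD3 UMIs and 3 Foxp3 UMIs, held 252 of the 583 cell cycle UMIs, 139 of them from the histone gene H2az1. Without the top cell of each library the ratio was 0.989 (0.864 to 1.13). Without all cells over 5000 UMIs, which include these top cells, it stayed between 0.607 and 0.757. It was 0.483 without the highest doublet scores, and below 1 under all 15 alternative settings (0.468 to 0.944). The metabolism list was not separated, at a ratio of 1.12 (0.993 to 1.27), with 6 of 10 counted genes higher, 4 lower and 0 at 2-fold. Gapdh, a glycolytic enzyme, was at 1164 and 1257 CPM and Pkm, pyruvate kinase, at 711 and 782 CPM. Ldha, lactate dehydrogenase A, was at 469 and 879 CPM (log2 ratio 0.91), but 23 of its 100 RP-6306 UMIs were in 1 cell, and in the cells without a keratin UMI its log2 ratio was 0.29.

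Over all genes with at least 20 UMIs, 114 were at least 2-fold higher and 65 at least 2-fold lower in the RP-6306 cells. With TMM scaling, which moved the median log2 ratio by 0.19, the split was 172 and 40. Without the cells over 5000 UMIs, 33 genes in place of 65 were lower. Of these, 31 higher and 34 lower genes had a level in CD3-positive cells at least that in tumour and in macrophage barcodes and were not mitochondrial, ribosomal, receptor segment or unnamed gene models. Beyond those already described, the higher ones included Dpysl2, a cytoskeletal adaptor found in 2 vehicle and 17 RP-6306 cells (ratio 6.80, 1.70 to 59.2), and Cript, found in 1 and 17 cells (1 and 21 UMIs, ratio 11.4, 1.84 to 472). Rapgef6, an exchange factor for Rap GTPases, was found in 3 and 15 cells (ratio 3.99, 1.2 to 20.8).

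The lower ones included Ppp1r15a, a stress-induced phosphatase subunit, with 40 UMIs in 14 vehicle cells and 27 in 18 RP-6306 cells, at 647 and 237 CPM (ratio 0.367, 0.217 to 0.613). Arhgap15, a Rac GTPase-activating protein of leukocytes, was found in 11 of 37 and 8 of 61 cells, at 210.1 and 70.3 CPM (ratio 0.335, 0.120 to 0.871). Sik1, a salt-inducible kinase, had 16 and 11 UMIs and the methyltransferase gene Ezh2 13 and 7. Igfbp7 was among the lower genes through 1 cell, the vehicle cell with fibroblast transcripts, which held 18 of its 19 vehicle UMIs, and its log2 ratio turned from -3.09 to 1.25 without the cells over 5000 UMIs.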

How the data were processed

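The authors deposited 1 filtered gene by barcode matrix of UMI counts per library, made with Cell Ranger 7.1.0 per the file headers; the submitters' processing notes name version 2.1.1 and build mm10. The counts were not normalised. Sums over the chosen cells were divided by their total and scaled to CPM, with log2 ratios on log2(CPM + 1), a scale that understates changes of low genes. Of 55357 features, 980 shared a symbol and were summed by symbol. Positions are from GENCODE M21 (52081 identifiers matched). The cells, gene lists and tests were chosen with earlier results of these data known. With 1 library per treatment no p-value was computed. Intervals are 95% exact Poisson, Clopper-Pearson or conditional binomial ones, and square-and-add for differences of shares.

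A gene was counted as different at 2-fold or more with at least 20 UMIs over both libraries. Named genes were, in each list, those with at least 10 UMIs that had the 4 highest counts or the 3 largest ratios, the 10 most different per direction over all genes, and a fixed set of T cell genes. Bst2, Ifi203, Irf4, Isg15, Itgal, Lck, Ly6c2, Ncr1, Rsad2, Samhd1, Tm4sf1 and Trgc2 were named outside that rule, after their values were seen. A gene at 0 in 1 library was given a fold with that library set to a floor of 3 UMIs, and that fold carries no counting error. Doublets were not removed; Scrublet (scanpy 1.11.5, expected rate 0.08) called 1 and 2 barcodes by its automatic threshold, so the highest 8% of scores were left out as an alternative. Depth was levelled by the expected value of drawing 1000 or 500 UMIs per cell without replacement. The ratio calculation was tested on simulated sums drawn 20 times deeper than the real ones. Known folds were set in more abundant genes only, with no spread between cells. It checked the arithmetic and not the ratios of genes with few UMIs. Python 3.11.15, numpy 2.4.6, scipy 1.17.1, pandas 2.3.3 and matplotlib 3.10.9 were used.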

Additional observations from a re-analysis of the deposited data

How the results depend on the processing

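Of 445 values of the main results under 19 settings, 365 were counted as unchanged. A ratio or difference was unchanged when it lay within the counting interval of its main value, which a wide interval makes easy. Such a value can lie on the other side of no difference, so kept directions were not counted. The homing ratio (0.907) was unchanged in 14 of 15 alternatives, although 5 of the 15 gave a ratio above 1. The difference in CD8 share was above 0 under all 13 alternatives run (13.4 to 30.7 points), as was that in CD3-positive share under all 10 (0.114 to 0.202). The log2 ratio of Cxcl10 ranged from -2.10 to -1.45, that of Gzmb from 1.41 to 2.27 and that of Ccl5 from 0.70 to 1.40. No paired analysis was possible because each treatment has 1 library and the labels give no replicate numbers, and for the same reason no replicate could be left out. The 98 cells and their depth limit every gene under about 20 UMIs. The cause of the changes listed next was not tested, beyond the smaller number of cells or genes in each setting. Settings with 5000 UMIs, 500 UMIs and NK markers were chosen after seeing the data.

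Cells without keratin UMIs gave 32 lower genes, log2 ratios of -0.29 (Cebpd) and 1.08 (Igfbp7), and list ratios of 5.52 (CD8), 2.33 (chemokines), 1.25 (activation), 2.14 (activation in CD8 cells), 0.849 (cell cycle), 1.6 (cytotoxic), 1.27 (exhaustion) and 1.17 (regulatory). Cells without Lyz2 gave log2 ratios of 0.000621 (Igfbp4) and 0.96 (Igfbp7) and an activation ratio of 1.21 in CD8 cells. A minimum of 1 UMI gave 3664 higher and 2284 lower genes, and one of 50 UMIs gave 16 and 8. With 2 UMIs of a subset gene, Cd4 was found in 0% and 3.28% of vehicle and RP-6306 cells, Foxp3 in 2.70% and 0%, and neither co-receptor in 91.9% and 72.1%.

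With 3 or more CD3 UMIs the RP-6306 share was 0.439%, the log2 ratio of Gzma 3.55, and the ratios 2.20 (chemokines), 0.568 (cell cycle) and 1.33 (interferon). The log2 ratios of Gzma here and below set 0 vehicle UMIs against few RP-6306 UMIs, so their size is not an estimate of fold. With 4 or more the shares were 0.248% and 0.362%, the RP-6306 CD8 share 47.4% and that without co-receptor 42.1%, the log2 ratio of Gzma 3.88, and the ratios 2.54 (chemokines), 0.468 (cell cycle), 1.65 (cytotoxic), 1.22 (exhaustion) and 1.39 (interferon). TMM scaling gave 172 higher and 40 lower genes, an activation ratio of 1.26 in CD8 cells and a cell cycle ratio of 0.775. The mean of per-cell CPM gave 2.57 (chemokines), 0.793 (cell cycle) and 1.08 (naive).

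At 1000 UMIs per cell there were 21 higher and 9 lower genes, log2 ratios of 0.0831 (Gata3) and 0.52 (Il2ra), and ratios of 5.02 (CD8), 1.18 (activation), 2.53 (activation in Cd4 cells), 0.817 (cell cycle), 1.27 (exhaustion) and 1.3 (regulatory). At 500 UMIs the RP-6306 CD8 share was 20.3%, and the shares without co-receptor 88.5% and 75.7%.

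Without cells above the 95th percentile of UMIs there were 37 lower genes, log2 ratios of -0.22 (Cebpd), 0.18 (Igfbp4) and 1.15 (Igfbp7), and ratios of 2.21 (chemokines), 1.19 (activation), 1.29 (activation in CD8 cells), 0.874 (cell cycle) and 1.19 (regulatory). Without cells over 5000 UMIs there were 33 lower genes, log2 ratios of -0.12 (Cebpd), 0.28 (Igfbp4) and 1.25 (Igfbp7), and ratios of 2.36 (chemokines), 1.29 (activation in CD8 cells), 1.2 (exhaustion), 1.19 (regulatory) and 1.36 (interferon). Without cells with 2 or more NK marker UMIs the log2 ratio of Gzma was 5.99 and the ratios 2.46 (chemokines) and 0.503 (cell cycle).

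Without the highest Scrublet scores there were 73 higher and 39 lower genes, log2 ratios of 4.71 (Igfbp4) and 1.37 (Igfbp7), and ratios of 2.46 (chemokines), 1.15 (activation), 1.29 (activation in CD8 cells), 0.483 (cell cycle), 1.2 (exhaustion), 1.07 (homing), 0.933 (naive) and 1.37 (interferon). Without the cell with most UMIs of each gene there were 24 lower genes, log2 ratios of 5.49 (Gzma) and 0.11 (Igfbp7), and ratios of 3.94 (activation in Cd4 cells), 2.28 (activation in CD8 cells), 0.944 (cell cycle) and 2.13 (exhaustion in CD8 cells).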
